A study of Haemulon flavolineatum and Haemulon macrostomum and Haemulon carbonarium with 36 samples.

Results

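The complement components and regulators of the liver were followed across 3 grunt species of the Caribbean. They were taken by protein name: an isogroup, which is a cluster of assembled contigs treated as 1 gene, was a member when its name held complement C, complement component, complement factor, C1q or properdin. A name came from the study's table of differentially expressed genes (DEGs) or from the annotation lines held here for the *H. macrostomum* assembly. Those lines are only a part of that annotation, so complement isogroups named in the rest of it are not among the members. Of 58532 isogroups with counts, 66 were members under 24 different names, and 4 further isogroups with such a name had no line among the counts and were not analysed here. Where the sources named an isogroup differently, 1 matching name was enough. The 24 names therefore include Merlin (isogroup9656) and alpha-methylacyl-CoA racemase (isogroup5116), isogroups that matched only through another name. A filter on low counts kept 36 of the 66 for testing and left 30 out.

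Complement is a cascade of plasma proteins, most of them made by hepatocytes, that marks and kills microbes. In mammals, C1q binds antibody or a microbial surface and switches on the proteases C1r and C1s, lectins do the same through their own proteases, and both routes cleave C3, the central protein whose fragment C3b is fixed to the target. Factor B joins C3b to form a protease that cleaves more C3, properdin stabilises that protease, and factor H takes it apart and protects the body's own cells. C5 opens the terminal steps, which end in a pore in the target membrane. Bony fish carry the same steps, often with several copies of C3, factor B and C1q-domain proteins.

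The livers came from wild fish speared within 2 days in the Bocas del Toro Archipelago, Panama, with no treatment and no control group: 8 *H. carbonarium*, 17 *H. flavolineatum* and 11 *H. macrostomum*. By the study's account, most *H. macrostomum* were taken on outer reefs with stronger currents and waves than the other species. Species and collecting site therefore cannot be told apart in comparisons with *H. macrostomum*. Age was not given, the gonads were undeveloped and sex was not determined. Each fish gave 1 TagSeq library, an assay that reads a single tag near the 3′ end of each mRNA, so counts were not divided by length. Reads of all 3 species were mapped to a transcriptome assembled from 1 *H. macrostomum* fish, so that for the other species less mRNA and a poorer match to that reference cannot be told apart.

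Library totals ran between 578011 and 3252882 counts, and levels are given as CPM, counts scaled to 1e+06 of the library total of tested isogroups after its TMM adjustment. The liver label held in every fish: 19 hepatocyte isogroups summed to between 57555 and 77740 CPM in *H. carbonarium*, between 13493 and 66669 CPM in *H. flavolineatum* and between 65715 and 103467 CPM in *H. macrostomum*. Digestive enzymes of the exocrine pancreas, 8 isogroups, summed to between 9135 and 57020 CPM, between 1784 and 15680 CPM and between 383 and 8482 CPM in the same 3 species. In 6 *H. flavolineatum*, egg proteins (vitellogenins and choriogenins) held between 9.52% and 19.4% of counts, against at most 0.491% in any other fish. The contribution of these differences in liver make-up to the values below was not tested, beyond the values given without the 6 egg-protein fish.

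Complement members held 862196 counts, or 1.53% of all counts. The median share per fish was 1.39% (*H. carbonarium*), 1.44% (*H. flavolineatum*) and 1.90% (*H. macrostomum*). Most of it came from 4 isogroups, 1 each of C3, factor B, factor H and C5, and no other member had more than 30065 counts.

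Each pair of species was compared for every member, with the fold change taken as the species named first over the species named second (edgeR's quasi-likelihood test, Benjamini-Hochberg adjusted p under 0.01 over all 8598 isogroups tested). In *H. carbonarium* against *H. flavolineatum*, 7 of the 36 tested members were higher and 11 lower, beside 14.4% of all isogroups called (7.85% higher, 6.55% lower). In *H. carbonarium* against *H. macrostomum*, 5 were higher and 10 lower, beside 13.5% of all isogroups (6.08% higher, 7.41% lower). In *H. flavolineatum* against *H. macrostomum*, 9 were higher and 15 lower, beside 26.0% of all isogroups (11.6% higher, 14.4% lower). In all, 31 of the 36 were called in at least 1 comparison and 5 in all 3. The 31 were the tested members that the table of DEGs named, and no tested member outside it was called. The share of all isogroups called in any or in every comparison was not counted.

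These counts describe the members and are no independent evidence, because 28 of the 36 were named only through the table of DEGs, which the study drew from these same fish. The annotation tables named 8 of the tested members. Of these, 0 were higher and 2 lower in *H. carbonarium* against *H. flavolineatum*, and 0 were higher and 2 lower in *H. carbonarium* against *H. macrostomum*. In *H. flavolineatum* against *H. macrostomum*, 1 was higher and 2 were lower. Every one of these calls fell on isogroup750, isogroup9656 or isogroup10610, which the table of DEGs named as well. The rest of the 8, outside the table of DEGs, were called in no comparison. The median log2 fold change of the 36 members was 0.09, -0.54 and -0.57 in the 3 comparisons in that order, beside medians of -0.05, 0.00 and 0.04 over all isogroups tested. Levels of the species did not overlap for 1, 6 and 5 of the 36 members, beside 2.42%, 3.59% and 3.54% of all isogroups.

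**Figure D1:**
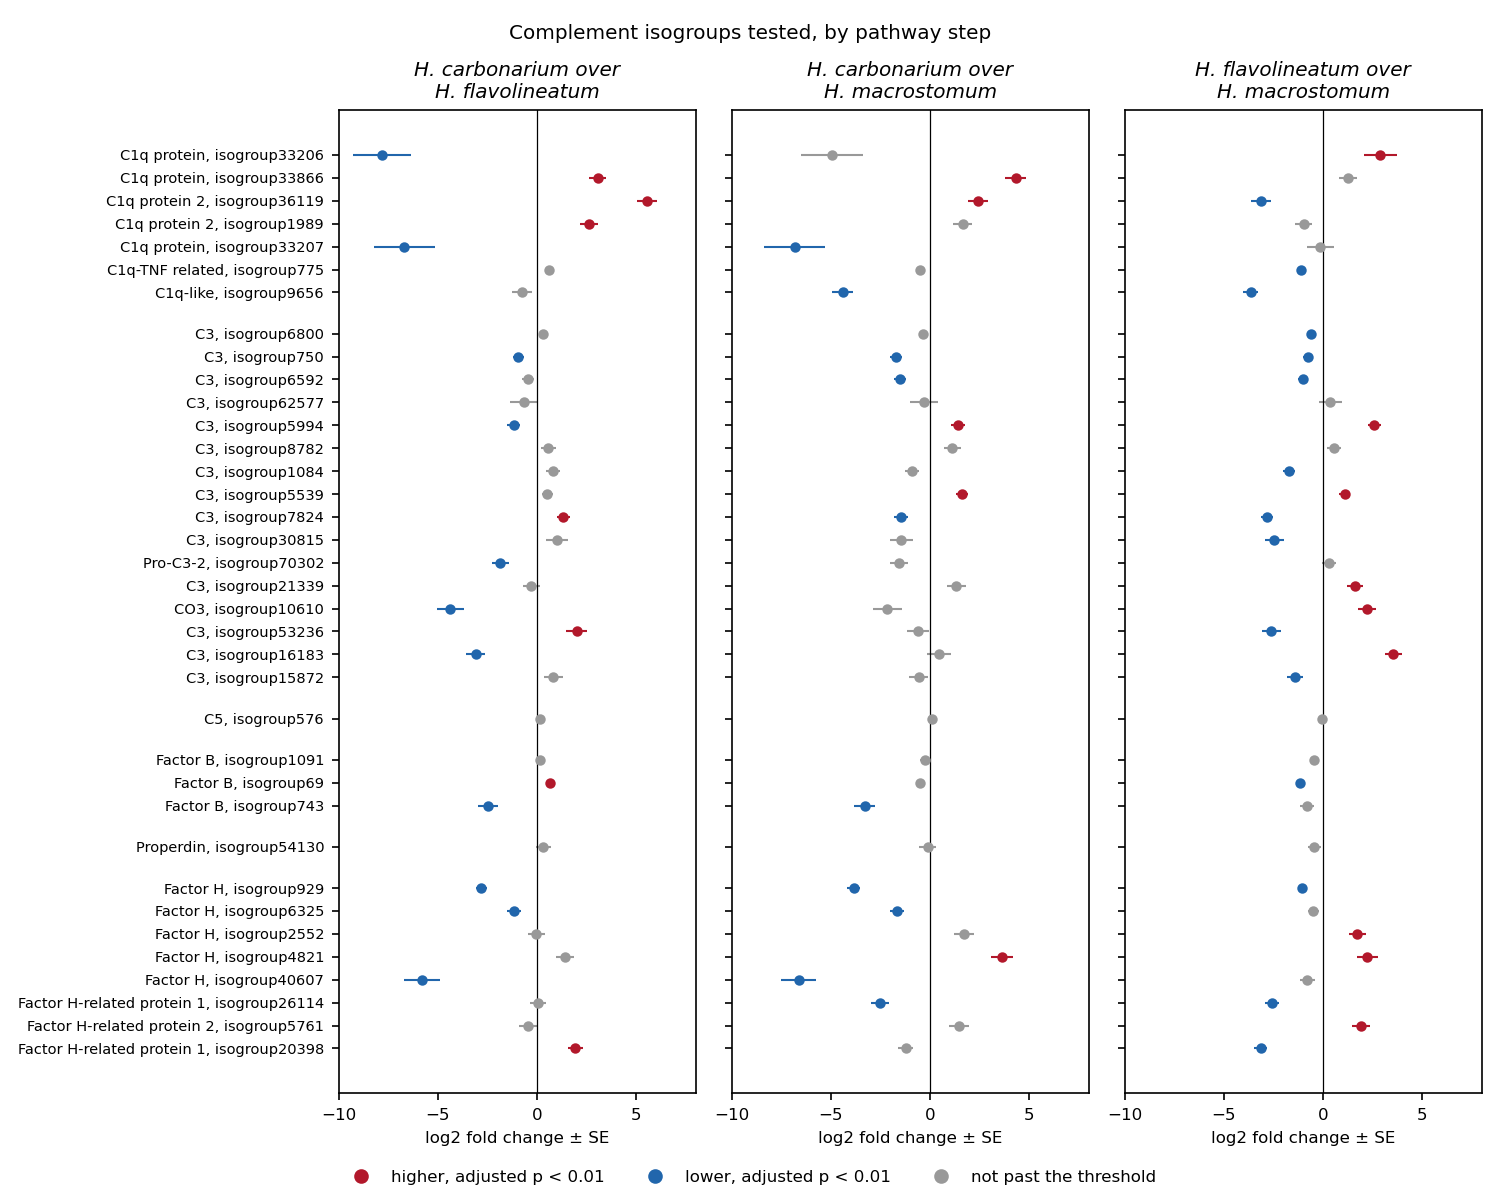
Log2 fold changes with their standard errors (edgeR) for the 36 complement isogroups tested, grouped by pathway step from C1q at the top to the factor H-related proteins at the bottom, in each of the 3 species comparisons. Factor H isogroup929 lay below 0 in all 3 panels (-2.80, -3.85 and -1.05), C5 lay between -0.08 and 0.15, and the C3 and C1q isogroups were spread on both sides of 0.

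The isogroups named C1q protein differed among themselves, some being highest in *H. carbonarium* and others nearly absent from it. Whether these isogroups code for the C1q of the classical pathway or for other C1q-domain proteins was not tested. The first of them, isogroup36119 under the name complement C1q protein 2, had its lowest, median and highest level at 18.6, 46.0 and 121 CPM in *H. carbonarium*, at 0, 0.870 and 6.66 CPM in *H. flavolineatum* and at 1.12, 10.2 and 24.7 CPM in *H. macrostomum*. Every *H. carbonarium* was above every *H. flavolineatum*, while *H. macrostomum* overlapped with both. Its log2 fold change was 5.54 ± 0.51 in *H. carbonarium* against *H. flavolineatum* (SE; n = 8 and 17; edgeR adjusted p = 3.16e-11), 2.41 ± 0.48 in *H. carbonarium* against *H. macrostomum* (n = 8 and 11; edgeR adjusted p = 0.000214) and -3.13 ± 0.51 in *H. flavolineatum* against *H. macrostomum* (n = 17 and 11; edgeR adjusted p = 4.8e-06). In bulk tissue, fewer cells making a transcript and less transcript per cell cannot be told apart, here or in the values that follow.

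The other isogroup of that name, isogroup1989, averaged 40.7 ± 32.0 CPM in *H. carbonarium*, 5.98 ± 6.08 CPM in *H. flavolineatum* and 12.9 ± 11 CPM in *H. macrostomum* (SD). It was higher in *H. carbonarium* than *H. flavolineatum* (log2 fold change 2.61 ± 0.46; edgeR adjusted p = 3.34e-05), and its other comparisons did not pass the threshold. Isogroup33866, named C1q protein, lay between 17 and 186 CPM in *H. carbonarium*, against 0 to 25.7 CPM in *H. flavolineatum* and 0 to 14.4 CPM in *H. macrostomum*. No *H. carbonarium* overlapped with *H. macrostomum* for this isogroup, which was 4.31 ± 0.52 higher on the log2 scale (edgeR adjusted p = 4.02e-08), and it was 3.04 ± 0.42 higher than in *H. flavolineatum* (edgeR adjusted p = 4.65e-07).

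A pair of isogroups under the same name, C1q protein, went the other way. Isogroup33206 had a count in only 2 of 8 *H. carbonarium*, at no more than 1.06 CPM, in 12 of 17 *H. flavolineatum*, with a median of 57.2 and a highest level of 228 CPM, and in 9 of 11 *H. macrostomum*, with a median of 7.39 and a highest level of 48.3 CPM. Isogroup33207, chosen after its values were seen, had a count in 1 of 8 *H. carbonarium*, 11 of 17 *H. flavolineatum* and 9 of 11 *H. macrostomum*. Both ranges overlapped between all species, because some *H. flavolineatum* and *H. macrostomum* were at 0 as well.

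For isogroup33206 the log2 fold change was -7.81 ± 1.48 in *H. carbonarium* against *H. flavolineatum* (edgeR adjusted p = 9.96e-05), a size that rests on near-zero counts in *H. carbonarium*, and its value against *H. macrostomum* (-4.94 ± 1.54) did not pass. Isogroup33207 was lower in *H. carbonarium* than in both *H. flavolineatum* (-6.68 ± 1.52; edgeR adjusted p = 0.00101) and *H. macrostomum* (-6.83 ± 1.54; edgeR adjusted p = 0.000961). The sizes for isogroup33207 likewise rest on near-zero counts in *H. carbonarium*. Its calls were not checked with fish left out or under the alternatives. Isogroup33206 was also higher in *H. flavolineatum* than *H. macrostomum* (2.87 ± 0.84; edgeR adjusted p = 0.00614), a call lost in DESeq2 run without a count filter, in a fit of those 2 species alone and when any of 11 single fish was left out (2.68 to 3.40).

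Counts of isogroups that share a name were also summed before the fit, since a read can match several of them. Summed complement C1q protein 2 averaged 96.2 ± 63.8 CPM in *H. carbonarium*, 7.17 ± 5.77 CPM in *H. flavolineatum* and 23.3 ± 17.6 CPM in *H. macrostomum*, and all 3 comparisons passed the threshold (log2 fold changes 3.68, 2.08 and -1.60). Summed C1q protein averaged 75.8 ± 53.3, 102 ± 102 and 34.0 ± 35.1 CPM in the same species, and no comparison passed. Under that name, isogroup33866 and isogroup33206 had been called in opposite directions in *H. carbonarium* against *H. flavolineatum*.

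C1q in mammals is made by macrophages more than by hepatocytes. The macrophage and antigen-presenting cell isogroups named in the tables, 4 in number, summed to between 0.785 and 17.3 CPM in *H. carbonarium*, between 0 and 6.67 CPM in *H. flavolineatum* and between 0 and 4.62 CPM in *H. macrostomum*, and none of them passed the filter on counts. The *H. carbonarium* with the most C1q protein (422 CPM over 6 isogroups) was also the fish with the most pancreas enzyme transcript (57020 CPM). That is 1 fish of 8, and whether the 2 levels varied together across the fish was not tested. The part of these cells in the C1q levels was not tested.

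Of the proteins named C1q-like or related to both C1q and tumor necrosis factor, the 2 tested isogroups had their highest mean levels in *H. macrostomum*. Isogroup775, named C1q and tumor necrosis factor related protein and so of a family of secreted hormone-like proteins, averaged 109 ± 17.7 CPM in *H. carbonarium*, 71.8 ± 23.1 CPM in *H. flavolineatum* and 154 ± 35.9 CPM in *H. macrostomum*, and differed between *H. flavolineatum* and *H. macrostomum* (log2 fold change -1.10 ± 0.17; edgeR adjusted p = 2.72e-06). Isogroup9656 averaged 3.27 ± 3.87, 4.76 ± 2.93 and 59.7 ± 31.5 CPM in these species and was lower in both *H. carbonarium* (-4.41 ± 0.55; edgeR adjusted p = 6.56e-08) and *H. flavolineatum* (-3.64 ± 0.38; edgeR adjusted p = 3.97e-10) than in *H. macrostomum*. The sources differed on what isogroup9656 is: a C1q-like protein in the annotation tables and Merlin, a cytoskeletal protein, in the table of DEGs. Among the untested isogroups of this kind, C1QL2 (isogroup57998) went another way, with 10 counts over the *H. carbonarium*, 66 over the *H. flavolineatum* and 2 over the *H. macrostomum*. The C1q binding protein, a mitochondrial protein (isogroup11975), had 15 counts over all fish.

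**Figure D2:**
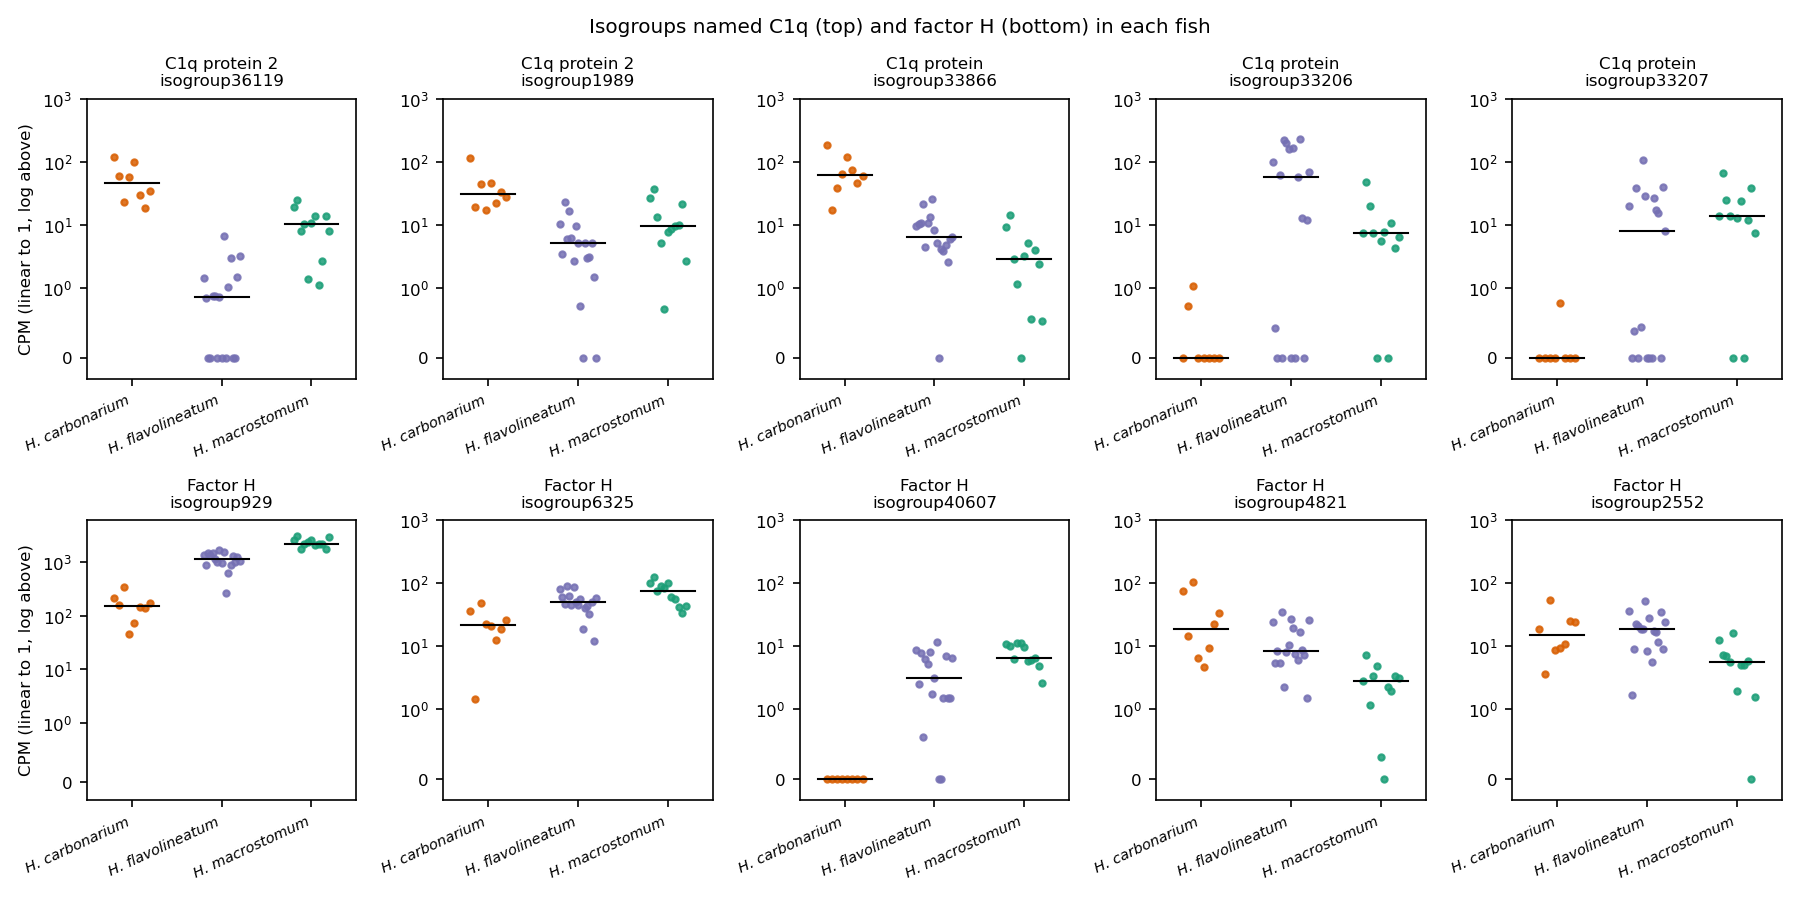
CPM of 5 C1q isogroups (top row) and 5 factor H isogroups (bottom row) in each fish, on an axis that is linear up to 1 CPM and logarithmic above it; points are fish, lines are species medians. Isogroup36119 stood at 18.6 to 121 CPM in *H. carbonarium* and 0 to 6.66 CPM in *H. flavolineatum*, and isogroup40607 was at 0 in all 8 *H. carbonarium*.

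The proteases that C1q switches on were sparse. C1r (isogroup222) had 111 counts over 8 *H. carbonarium*, 54 over 17 *H. flavolineatum* and 31 over 11 *H. macrostomum*, and C1s (isogroup44170) had 42, 22 and 44 counts. Neither passed the filter, so neither was tested. Their summed level ran from 5.16 to 20.5 CPM in *H. carbonarium*, from 0 to 7.77 CPM in *H. flavolineatum* and from 1.98 to 6.28 CPM in *H. macrostomum*, ranges that overlapped.

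Complement genes outside the name rule were few in the part of the annotation held and the table of DEGs: 6 had counts and 3 were tested. The lectin pathway protease MASP1 (isogroup1480) averaged 35.6 ± 9.57 CPM in *H. carbonarium*, 63.1 ± 13.1 CPM in *H. flavolineatum* and 61.2 ± 16 CPM in *H. macrostomum*, and was lower in *H. carbonarium* than *H. flavolineatum* (log2 fold change -0.82 ± 0.17; edgeR adjusted p = 0.000435) and *H. macrostomum* (-0.77 ± 0.18; edgeR adjusted p = 0.00174). Clusterin (isogroup368), an inhibitor of the terminal pore, was likewise lower in *H. carbonarium* than *H. flavolineatum* (-2.18 ± 0.63; edgeR adjusted p = 0.00967) and *H. macrostomum* (-2.96 ± 0.67; edgeR adjusted p = 0.000989). Vitronectin (isogroup158), another inhibitor of the pore, averaged 268 ± 54.6, 400 ± 152 and 433 ± 58.8 CPM and passed in no comparison, and none of the 3 passed in *H. flavolineatum* against *H. macrostomum*. CD59, the C5a receptor and a mannose-binding protein had 55, 1 and 31 counts over all fish and were not tested.

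C3 was the largest complement transcript in every species and had its highest mean level in *H. macrostomum*. Over 27 isogroups the summed C3 level had its lowest, median and highest fish at 7072, 9437 and 12042 CPM in *H. carbonarium*, at 3785, 8208 and 11837 CPM in *H. flavolineatum* and at 9269, 12298 and 16934 CPM in *H. macrostomum*. The ranges overlapped. Isogroup6800 held 88.4% of the C3 counts and averaged 8736 ± 1635, 7185 ± 1709 and 11137 ± 2011 CPM in these species.

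Isogroup6800 was lower in *H. flavolineatum* than *H. macrostomum* (log2 fold change -0.63 ± 0.15; n = 17 and 11; edgeR adjusted p = 0.000713), a call lost without the filter on low counts. Its values in *H. carbonarium* against *H. flavolineatum* (0.28 ± 0.16) and *H. macrostomum* (-0.35 ± 0.18) did not pass. The summed name complement component C3, with 12 isogroups, gave 0.29, -0.36 and -0.65 in the 3 comparisons, and only the last passed (edgeR adjusted p = 0.000339). The summed name complement C3, with 13 isogroups, gave -0.52, -1.03 and -0.51, and only *H. carbonarium* against *H. macrostomum* passed (edgeR adjusted p = 0.00567), a call lost without the filter on low counts and when any of 4 single fish was left out.

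The smaller C3 isogroups differed among themselves in direction. Isogroup750 lay between 148 and 334 CPM in *H. carbonarium*, between 143 and 847 CPM in *H. flavolineatum* and between 525 and 1094 CPM in *H. macrostomum*, so that every *H. carbonarium* was below every *H. macrostomum* (log2 fold change -1.72 ± 0.30; edgeR adjusted p = 3.6e-05). Its other values, -0.95 ± 0.28 in *H. carbonarium* against *H. flavolineatum* and -0.77 ± 0.23 in *H. flavolineatum* against *H. macrostomum*, passed narrowly (edgeR adjusted p = 0.00939 and 0.00889) and were lost when any of 30 and of 15 single fish was left out. Isogroup6592, chosen after its values were seen, stood at 21.9 to 291 CPM in *H. carbonarium*, also below every *H. macrostomum* at 396 to 749 CPM.

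Isogroup5994 was lowest in *H. macrostomum*, with lowest, median and highest levels of 4.74, 50.7 and 78.5 CPM in *H. carbonarium*, 44.7, 85.8 and 173 CPM in *H. flavolineatum* and 9.66, 16.2 and 22.6 CPM in *H. macrostomum*. Every *H. flavolineatum* was above every *H. macrostomum* (log2 fold change 2.58 ± 0.31; edgeR adjusted p = 1.19e-08). It was also higher in *H. carbonarium* than *H. macrostomum* (1.40 ± 0.34; edgeR adjusted p = 0.00197), a call that reached an adjusted p of 0.0104 without *H. carbonarium* fish 5. Its call in *H. carbonarium* against *H. flavolineatum* (-1.17 ± 0.33) was lost when any of 10 single fish was left out and in a fit of those 2 species alone.

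Isogroup16183 differed between the same pair of species, with 1.62 to 46.6 CPM in *H. flavolineatum* against 0 to 1.59 CPM in *H. macrostomum* (log2 fold change 3.53 ± 0.42; edgeR adjusted p = 1.06e-08). The 1.62 and 1.59 CPM at the edges of these ranges stand for a few reads at most. That the ranges do not overlap therefore rests on counts near the floor. *H. carbonarium*, at 0 to 2.65 CPM, was also lower than *H. flavolineatum* (-3.08 ± 0.47; edgeR adjusted p = 3.48e-06). Isogroup7824 separated *H. flavolineatum* and *H. macrostomum* the other way, with 0 to 10.9 CPM against 18.5 to 59.7 CPM (-2.81 ± 0.30; edgeR adjusted p = 5.62e-10). In *H. carbonarium* isogroup7824 lay between 1.92 and 35.4 CPM and was called higher than in *H. flavolineatum* (1.32 ± 0.33; edgeR adjusted p = 0.00286), a call lost without *H. carbonarium* fish 2 (0.96; adjusted p = 0.0294) and without the egg-protein fish.

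Isogroup10610, named CO3, averaged 0.633 ± 0.939 CPM in *H. carbonarium*, 15.6 ± 11.2 CPM in *H. flavolineatum* and 3.41 ± 2.69 CPM in *H. macrostomum*, and differed in *H. carbonarium* against *H. flavolineatum* (log2 fold change -4.37 ± 0.66; edgeR adjusted p = 2.65e-06). Isogroup5539 averaged 31.4 ± 14.7, 22.2 ± 8.70 and 10.5 ± 4.85 CPM and was higher in both *H. carbonarium* (1.59 ± 0.31; edgeR adjusted p = 0.000134) and *H. flavolineatum* (1.08 ± 0.27; edgeR adjusted p = 0.00137) than in *H. macrostomum*. Of the 16 C3 isogroups tested, 2 were higher and 5 lower in *H. carbonarium* against *H. flavolineatum*, beside 14.4% of all isogroups called. For *H. carbonarium* against *H. macrostomum*, 2 were higher and 3 lower, beside 13.5%. In *H. flavolineatum* against *H. macrostomum*, 5 were higher and 8 lower, beside 26.0%. The table of DEGs named 21 of the 27 C3 isogroups, so these counts are no independent evidence. Whether these isogroups are separate C3 genes or pieces of 1 gene was not tested.

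C5, the start of the terminal steps, showed no called difference. Isogroup576 had lowest, median and highest levels of 609, 870 and 1161 CPM in *H. carbonarium*, 259, 798 and 1053 CPM in *H. flavolineatum* and 639, 838 and 1104 CPM in *H. macrostomum*. The 3 ranges lay over each other. The log2 fold changes were 0.15 ± 0.17, 0.08 ± 0.19 and -0.08 ± 0.16 in *H. carbonarium* against *H. flavolineatum*, *H. carbonarium* against *H. macrostomum* and *H. flavolineatum* against *H. macrostomum* (SE; edgeR adjusted p = 0.578, 0.817 and 0.733). A second C5 isogroup (isogroup78032) had 16 counts. No isogroup named for C6 to C9 was among the members, but only a part of the annotation was held, so their absence from the liver is not shown.

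Factor B, the protease of the alternative pathway, had its highest mean level in *H. macrostomum*, and its 3 tested isogroups differed in pattern. Isogroup1091, with 79.3% of the factor B counts, averaged 1991 ± 496 CPM in *H. carbonarium*, 1790 ± 517 CPM in *H. flavolineatum* and 2423 ± 514 CPM in *H. macrostomum* and passed in no comparison (log2 fold changes 0.15, -0.28 and -0.44). Isogroup69 averaged 551 ± 110, 350 ± 105 and 780 ± 138 CPM and was lower in *H. flavolineatum* than *H. macrostomum* (-1.15 ± 0.16; edgeR adjusted p = 1.95e-07). Its call in *H. carbonarium* against *H. flavolineatum* (0.65 ± 0.17; edgeR adjusted p = 0.00515) was lost without *H. carbonarium* fish 3 (adjusted p = 0.0168), without the egg-protein fish, without the filter on low counts and in a fit of those 2 species alone.

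The smallest of them, isogroup743, had lowest, median and highest levels of 0, 0.961 and 5.76 CPM in *H. carbonarium*, 0.871, 9.21 and 22.5 CPM in *H. flavolineatum* and 7.42, 13.9 and 44.5 CPM in *H. macrostomum*. Every *H. carbonarium* was below every *H. macrostomum* (log2 fold change -3.28 ± 0.53; edgeR adjusted p = 8.61e-06), and *H. carbonarium* was also lower than *H. flavolineatum* (-2.46 ± 0.51; edgeR adjusted p = 0.000345). Summed factor B averaged 2543 ± 585, 2150 ± 592 and 3221 ± 507 CPM, and only *H. flavolineatum* against *H. macrostomum* passed (-0.59 ± 0.16; edgeR adjusted p = 0.00239). That call was lost without the filter on low counts and without the egg-protein fish.

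Properdin (isogroup54130), the stabiliser of the factor B protease, averaged 11.9 ± 12.4 CPM in *H. carbonarium*, 9.73 ± 3.66 CPM in *H. flavolineatum* and 13.2 ± 9.55 CPM in *H. macrostomum* and passed in no comparison (log2 fold changes 0.31 ± 0.38, -0.13 ± 0.41 and -0.44 ± 0.34). The 8 *H. carbonarium* alone ranged from 1.48 to 36.1 CPM.

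**Figure D3:**
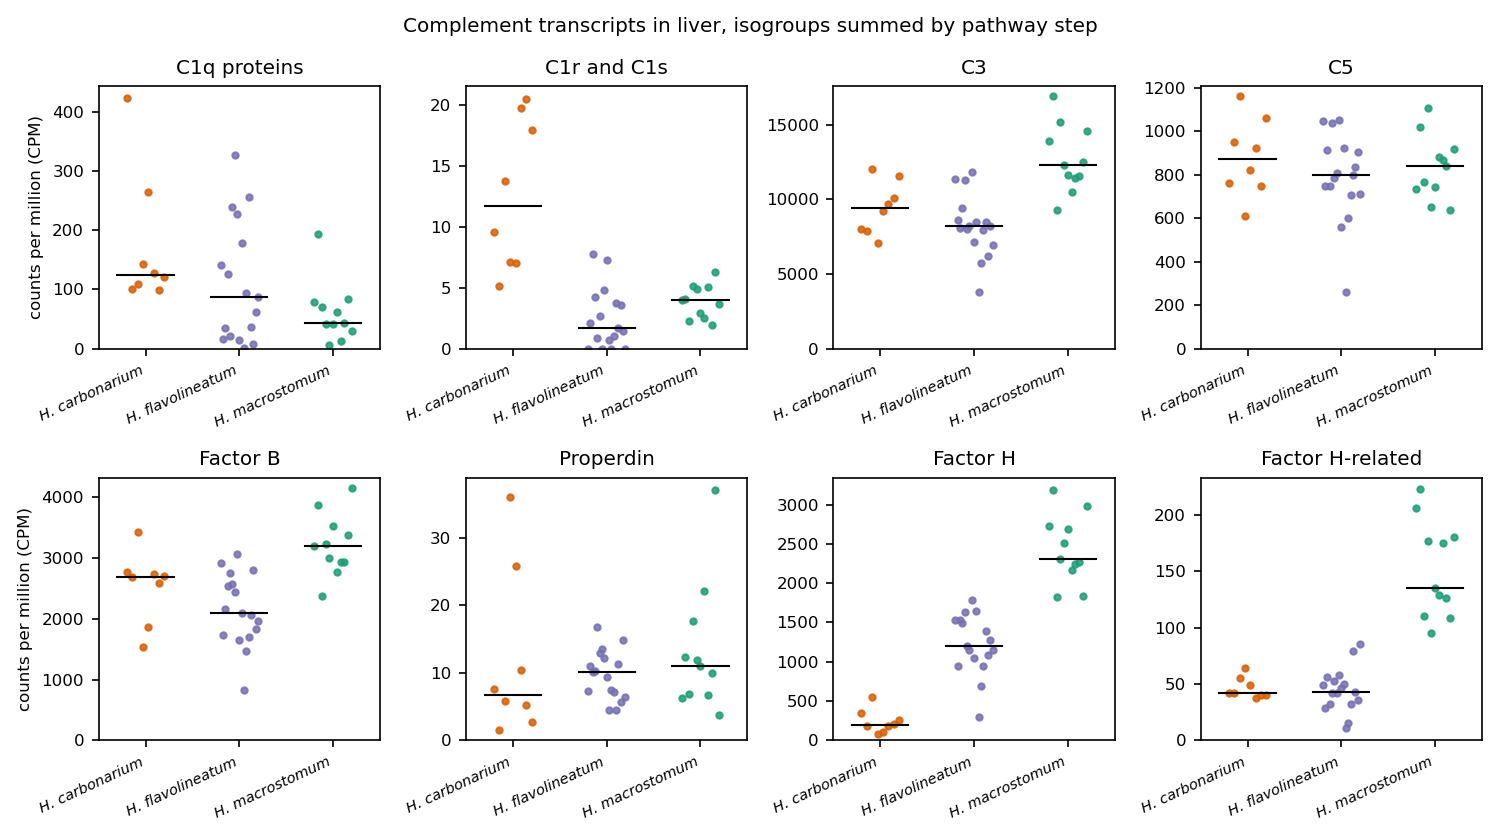
CPM of each fish, with isogroups summed by pathway step; points are fish, lines are species medians, and each panel starts at 0 with its own scale. The factor H medians were 194, 1202 and 2307 CPM from left to right, with no overlap between *H. macrostomum* and the other species, and the C5 medians were 871, 798 and 838 CPM.

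Factor H, the soluble inhibitor of the alternative pathway, was lowest in *H. carbonarium*, intermediate in *H. flavolineatum* and highest in *H. macrostomum*. Isogroup929, with 94.1% of the factor H counts, had lowest, median and highest levels of 46.2, 152 and 349 CPM in *H. carbonarium*, 268, 1129 and 1673 CPM in *H. flavolineatum* and 1738, 2211 and 3038 CPM in *H. macrostomum*. Every *H. macrostomum* was above every fish of the other species. *H. carbonarium* and *H. flavolineatum* overlapped only through the lowest *H. flavolineatum* (268 CPM), an egg-protein fish.

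The log2 fold change of isogroup929 was -2.80 ± 0.29 in *H. carbonarium* against *H. flavolineatum* (SE; n = 8 and 17; edgeR adjusted p = 5.05e-10), -3.85 ± 0.32 in *H. carbonarium* against *H. macrostomum* (n = 8 and 11; edgeR adjusted p = 2.9e-12) and -1.05 ± 0.22 in *H. flavolineatum* against *H. macrostomum* (n = 17 and 11; edgeR adjusted p = 0.000203). Leaving out each fish in turn kept all 3 calls, with values between -3.06 and -2.63, between -4.12 and -3.71 and between -1.11 and -0.98.

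Isogroup40607 had 0 counts in all 8 *H. carbonarium*, a count in 15 of 17 *H. flavolineatum*, up to 11.8 CPM, and a count in 11 of 11 *H. macrostomum*, between 2.65 and 11.4 CPM. With a floor of 3 counts over the 8 *H. carbonarium*, its level there was at least 17.4-fold lower than in *H. flavolineatum* and at least 29.9-fold lower than in *H. macrostomum*, limits that cover counting error only. Both comparisons passed (edgeR adjusted p = 8.88e-06 and 7.93e-07), and *H. flavolineatum* against *H. macrostomum* did not (-0.80 ± 0.37). Isogroup6325 averaged 23.4 ± 14.2, 52.1 ± 21.3 and 74.0 ± 29.5 CPM and was lower in *H. carbonarium* than *H. macrostomum* (-1.67 ± 0.36; edgeR adjusted p = 0.000586), while its call against *H. flavolineatum* (-1.17 ± 0.34; edgeR adjusted p = 0.00909) was lost when any of 30 single fish was left out.

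A pair of factor H isogroups at low level ran the opposite way. Isogroup4821 averaged 34.0 ± 36.8 CPM in *H. carbonarium*, 12.9 ± 9.99 CPM in *H. flavolineatum* and 2.78 ± 2.05 CPM in *H. macrostomum*. It was higher in both *H. carbonarium* (log2 fold change 3.62 ± 0.57; edgeR adjusted p = 5.49e-06) and *H. flavolineatum* (2.23 ± 0.51; edgeR adjusted p = 0.000651) than in *H. macrostomum*. Isogroup2552, chosen after its values were seen, averaged 19.5 ± 16.1, 19.8 ± 12.8 and 6.18 ± 4.68 CPM, and was higher in *H. flavolineatum* than *H. macrostomum* (1.72 ± 0.44; edgeR adjusted p = 0.00197).

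Summed over the 6 isogroups of the name, factor H kept the order of isogroup929. It averaged 240 ± 152 CPM in *H. carbonarium*, 1223 ± 379 CPM in *H. flavolineatum* and 2432 ± 437 CPM in *H. macrostomum*, and the log2 fold changes were -2.32 ± 0.28, -3.32 ± 0.30 and -1.0 ± 0.22 (edgeR adjusted p = 1.68e-08, 4.75e-11 and 0.000286). Of the 14 summed names tested, 5, 5 and 9 were called in the 3 comparisons, beside 14.7%, 13.7% and 25.8% of all features in that fit. Most of these names came through the table of DEGs, so the counts are no independent evidence. Some names held a single isogroup. C1q and tumor necrosis factor related protein was called in *H. carbonarium* against *H. flavolineatum* (edgeR adjusted p = 0.00993), where isogroup775 had not passed in the isogroup fit. That call passed only narrowly under the threshold of 0.01. With single fish left out, the summed names called in that comparison ran from 4 to 5. Merlin (isogroup9656) was called in both comparisons with *H. macrostomum*.

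Factor H-related proteins, which share domains with factor H and in mammals can compete with it, had their highest mean level in *H. macrostomum* under 1 name and their lowest there under the other. Summed factor H-related protein 1 lay between 20.4 and 47.2 CPM in *H. carbonarium*, between 3.73 and 45.7 CPM in *H. flavolineatum* and between 91.3 and 201 CPM in *H. macrostomum*. Every *H. macrostomum* was above every fish of the other species (log2 fold changes -2.17 ± 0.31 for *H. carbonarium* and -2.54 ± 0.24 for *H. flavolineatum*; edgeR adjusted p = 1.14e-06 and 3.41e-11). Summed factor H-related protein 2 averaged 15.7 ± 13.8, 20.3 ± 11.7 and 8.92 ± 5.78 CPM and was higher in *H. flavolineatum* than *H. macrostomum* (1.19 ± 0.36; edgeR adjusted p = 0.00877), a call lost when any of 20 single fish was left out and without the egg-protein fish.

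Within factor H-related protein 1, isogroup26114 averaged 18.8 ± 9.55 CPM in *H. carbonarium*, 18.2 ± 9.15 CPM in *H. flavolineatum* and 110 ± 45.7 CPM in *H. macrostomum*. Isogroup20398 averaged 10.4 ± 6.29, 2.58 ± 2.07 and 24.3 ± 17.2 CPM, with every *H. flavolineatum* below every *H. macrostomum* (log2 fold change -3.15 ± 0.33; edgeR adjusted p = 5.62e-10). Unlike isogroup26114, isogroup20398 was also higher in *H. carbonarium* than *H. flavolineatum* (1.91 ± 0.37; edgeR adjusted p = 0.000154).

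Ratios to C3 were formed from the counts within each fish, so that library scaling dropped out. Factor H had 2.46 ± 1.30 counts per 100 C3 counts in *H. carbonarium* (1.19 to 4.62), 14.7 ± 2.87 such counts in *H. flavolineatum* (7.98 to 19.4) and 19.3 ± 2.41 such counts in *H. macrostomum* (14.6 to 23.1). *H. carbonarium* lay below all fish of the other species, which overlapped with each other. Factor B, in contrast, had 27.1 ± 5.29, 26.4 ± 5.69 and 25.5 ± 2.60 counts per 100 C3 counts, and C5 had 9.35 ± 1.31, 9.64 ± 1.53 and 6.65 ± 1.19. These ratios were not tested.

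**Figure D4:**
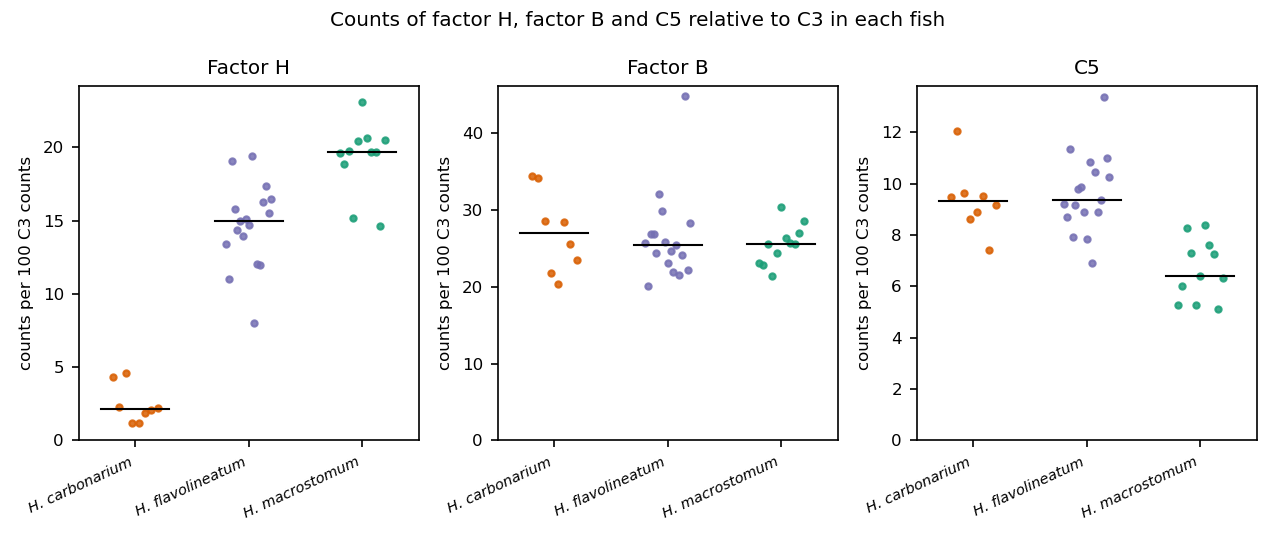
Counts of factor H, factor B and C5 per 100 C3 counts in each fish; points are fish, lines are species medians and each axis starts at 0. Factor H stood at 1.19 to 4.62 in *H. carbonarium*, below the 7.98 to 19.4 of *H. flavolineatum* and the 14.6 to 23.1 of *H. macrostomum*, while the factor B ranges of the 3 species lay over each other.

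Summed C3, factor B and factor H were also compared across the fish of each species. Across the 17 *H. flavolineatum*, summed C3 and factor H varied together (Pearson's r = 0.89, permutation p = 6.0e-05; Spearman's rho = 0.74, permutation p = 0.00096), and r was 0.74 without the 2 fish farthest from the median C3 level and 0.79 in the 11 fish without abundant egg proteins. C3 with factor B (r = 0.82) and factor B with factor H (r = 0.88) gave r = 0.43 and 0.15 in those 11 fish and did not pass there (adjusted permutation p = 0.293 and 0.655). In the 11 *H. macrostomum* the 3 relations gave r = 0.82, 0.72 and 0.74, and in the 8 *H. carbonarium* 0.64, 0.63 and 0.91. Of these 9 relations, 7 had an adjusted permutation p under 0.05 for Pearson's r. Without the 2 farthest fish, only the 2 of *H. flavolineatum* that involve factor H did. For Spearman's rho those 2 did not pass without the 2 farthest fish (adjusted permutation p = 0.0909 for both). Nor did rho for C3 with factor H pass in the 11 fish without abundant egg proteins (adjusted permutation p = 0.0577). All levels within a fish share the total of 1 library.

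The 6 egg-protein *H. flavolineatum* had less of the abundant components than the other 11. Their C3 ran from 3785 to 8599 CPM with a median of 7040, against 6228 to 11837 CPM with a median of 8501. Their C5 lay between 261 and 749 CPM, against 749 and 1053 CPM, and their factor B between 831 and 1971 CPM, against 1826 and 3063 CPM. Factor H stood at 302 to 1147 CPM, against 1083 to 1788 CPM. Each lowest value came from the same fish, *H. flavolineatum* fish 12. The next lowest egg-protein levels were 5760 CPM for C3, 560 CPM for C5, 1468 CPM for factor B and 693 CPM for factor H. The calls on summed factor H in the 3 species comparisons held without these 6 fish.

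The 30 members that did not pass the filter had between 1 and 196 counts over all fish, with a median of 58.5. The 3 with the most were C1r, an isogroup of C3 (isogroup23312, 183 counts) and one of factor H-related protein 1 (isogroup20622, 182 counts). A pair of C3 isogroups had 0 counts in all *H. carbonarium*, as did isogroup40607: isogroup28087 had 20 counts in *H. flavolineatum* and 137 in *H. macrostomum*, and isogroup18905 had 58 and 61. With the same floor of 3 counts, isogroup28087 was at least 27.5-fold lower in *H. carbonarium* than *H. macrostomum*, and isogroup18905 at least 12.3-fold lower. For a tag of 1 species read against another's transcript, no count and no match cannot be told apart.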

How the data were processed

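The authors trimmed the TagSeq reads, filtered them for quality and duplication (FastX Tool Kit), mapped them with Bowtie2 to the *H. macrostomum* transcriptome, allowing several matches per read, and deposited raw counts per isogroup in 1 table of 36 fish. The Bowtie2 version is not given in the sources used here. Species came from the sample labels.

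Protein names were taken from the table of DEGs first, then from 2000 UniProt and 2000 TrEMBL lines, a part of the *H. macrostomum* annotation. Only names and not values were read from these tables. The members and lists were chosen with earlier results of these data known. Counts were tested in edgeR 4.0.16 (R 4.3.3): filterByExpr (minimum count 10), TMM scaling, species as the only term over all fish, quasi-likelihood test, Benjamini-Hochberg adjustment over 8598 isogroups and a threshold of 0.01. Each fish was a separate animal. A standard error is the log2 fold change divided by the square root of F. Named isogroups were those given at the outset, the 2 with the highest mean level in each step, the 4 higher and 4 lower with the smallest p in each comparison, and the 3 untested with the most counts.

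Alternatives were DESeq2 1.42.0 without a count filter, median-of-ratios and upper-quartile scaling, other filters on counts (none, or a mean of at least 10), a threshold of 0.05, fewer fish and other member lists. The procedure was tested on simulated counts. It recovered 23.4%, 24.3% and 30.4% of log2 changes of 1 in the 3 comparisons, in the order used above. At log2 changes of 2 it recovered 80.6%, 75.8% and 86.8%, and at 3 it recovered 91.1%, 97.1% and 93.6%. Failing to pass, taken alone, therefore does not show that a change of about 1 on the log2 scale was absent. These rates are for isogroups drawn at random from all those tested. They were not computed for the abundant members, whose standard errors are given above. Fish numbers did not pair the fish: over 25 pairs of fish of different species with the same number, deviations from species means correlated at -0.0058 on average, and 1 pair exceeded 0.1.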

Additional observations from a re-analysis of the deposited data

Results flagged for a closer look

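Among 28 values checked in the 8 *H. carbonarium*, 3 had a single fish far from the others by Dixon's ratio. Chance flags about 1 in 20 groups of normally distributed values. The CPM were not log-transformed, and some of the 28 were sums over isogroups also checked singly, so that rate is only a rough guide. Isogroup9656, with 29 counts over all *H. carbonarium*, stood at 11.5 CPM in fish 1, against 0 to 5.33 CPM in the other fish. Isogroup1989, a C1q protein 2, stood at 115 CPM in the same fish, against 17.2 to 45.5 CPM. Isogroup7824, a C3, stood at 35.4 CPM in fish 2, against 1.92 to 16.6 CPM. Groups of 11 and 17 fish were not checked.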

How the results depend on the processing

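Of 44 called comparisons of single named isogroups, 36 kept their call whichever fish was left out and 32 kept it under every alternative run. Of 19 called comparisons of summed names, 16 and 11 did. Many of the named isogroups were chosen for a small p in these same fits, which favours calls that hold. Called members outside the named list, such as isogroup33207 and isogroup2552, were not checked one by one. The counts for named isogroups therefore do not describe all complement calls.

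Counts of members called moved as follows, with the count over all isogroups tested in the same setting in parentheses. In *H. carbonarium* against *H. flavolineatum*, the 7 higher became 4 with only these 2 species (500 of 7090 higher) or without the egg-protein fish (611 of 8518). The 11 lower became 7 with only these 2 species (474 of 7090 lower) or a mean count of at least 10 (434 of 6550). These 2 settings tested 30 and 33 members in place of 36 for that count. The 5 summed names became 8 in DESeq2 without a filter on counts, which tested 19 names in place of 14 (2321 of 25602 called). In *H. carbonarium* against *H. macrostomum*, the 5 higher became 10 at a threshold of 0.05 (880 of 8598 higher) and 8 without a filter (1141 of 58532). The 10 lower became 16 without a filter, in edgeR (1372 of 58532 lower) and in DESeq2 alike (1175 of 26755). Without a filter, edgeR tested 66 members and DESeq2 tested 54, in place of 36. In *H. flavolineatum* against *H. macrostomum*, the 9 higher became 14 without a filter, with 66 members tested (1806 of 58532 higher). With only the 8 tested members named in the annotation tables, the higher and lower counts were 0 and 2, 0 and 2, and 1 and 2 in the 3 comparisons. All of these calls were of isogroups that the table of DEGs named as well. With fish left out one at a time, higher and lower counts ran over 5 to 8 and 8 to 11, 4 to 7 and 10 to 11, and 8 to 10 and 13 to 15, and summed names over 4 to 5, 4 to 6 and 8 to 9. The cause of these shifts was not tested.

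The fit with fish number as a replicate block used only the 29 fish whose number occurred in more than 1 species. It left out *H. flavolineatum* fish 12 to 18, among them the egg-protein fish 12, 13, 14 and 18. Effects of the block and of the smaller set of fish cannot be told apart in this fit. With this block, the 7 higher members in *H. carbonarium* against *H. flavolineatum* became 3 (391 of 8181 isogroups higher). The 5 summed names there became 3 (685 of 8159 features called), and the 9 summed names in *H. flavolineatum* against *H. macrostomum* became 5 (1568 of 8159). Under this block, values that had not passed changed sign for isogroup26114 (-0.026) and isogroup54130 (-0.15; summed properdin -0.14) in *H. carbonarium* against *H. flavolineatum*, and for C5 in *H. flavolineatum* against *H. macrostomum* (isogroup576 0.013; summed 0.012).

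Other sign changes were also in values that had not passed. Without the egg-protein fish they were isogroup1091 (-0.016) and isogroup26114 (-0.20) in *H. carbonarium* against *H. flavolineatum*, and C5 in *H. flavolineatum* against *H. macrostomum* (isogroup576 0.090; summed 0.091). With single fish left out, isogroup26114 ran from -0.13 to 0.26 and isogroup54130 and summed properdin from -0.17 to 0.53 in *H. carbonarium* against *H. flavolineatum*, and properdin from -0.64 to 0.17 in *H. carbonarium* against *H. macrostomum*.

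Without the 2 fish farthest from the median, correlations no longer passed for factor B with factor H in *H. carbonarium* (0.86), C3 with factor B in *H. flavolineatum* (0.54), and in *H. macrostomum* for C3 with factor B (0.62), C3 with factor H (0.40) and factor B with factor H (0.54). Without the egg-protein fish the same held in *H. flavolineatum* for C3 with factor B (0.43) and factor B with factor H (0.15). These calls are for Pearson's r. For Spearman's rho, no relation passed in either of these settings.

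Depth limits the precision of the 30 members left out by the filter, which had at most 196 counts over 36 fish.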
